A study of Homo sapiens with 15 samples.

Results

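Golgins and vesicle tethering complexes are the proteins that catch an incoming transport vesicle before it fuses with its target membrane. The group described here held 42 genes of the 59608 listed for each library, and its members were listed by name: 11 golgins and Golgi reassembly stacking proteins (GRASPs), 8 subunits of the conserved oligomeric Golgi (COG) complex, 11 of the TRAPP complexes, 8 of the exocyst and 4 of the Golgi-associated retrograde protein (GARP) complex. Messenger RNA was measured by poly-A RNA-seq in MDA-MB-231 cells, a human triple-negative breast cancer line with a mesenchymal shape, grown flat in dishes. The cells received ZJ-101, the compound under study, at 0.5, 5, 50 or 500 nM for 6 h, or the 0.1% DMSO vehicle alone, with 3 libraries a group and 15 in all. The labels name no transgene or deletion in any group. All dishes came from 1 cell line, so p-values measured the spread between dishes of that line.

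Golgins are long coiled-coil proteins that are anchored on the Golgi by a small GTPase or a membrane anchor and reach out to bind vesicles. GRASPs link the stacked cisternae and hold golgins in place. The multisubunit tethers work at separate stations: TRAPP activates Rab GTPases between the endoplasmic reticulum and the Golgi, COG handles traffic that returns through the Golgi stack and keeps glycosylation enzymes in position, GARP receives carriers that come back from endosomes, and the exocyst brings secretory vesicles to the plasma membrane.

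Each library held between 12415519 and 15284762 reads on genes, and the 42 genes took 0.217% to 0.240% of them. Values below are normalized counts, which are reads divided by the library's size factor. VIM stood at 13433 to 18413 and ESR1 at 0 to 4.30 normalized counts, while ERBB2 at 1136 to 1328 and KRT8 at 11198 to 13346 were not low. Of the other markers expected low, PGR stood at 5.37 to 17.3, CDH1 at 107 to 206 and EPCAM at 266 to 320. Of 8 markers of other cells, 6 (PTPRC, CD3E, VWF, DCN, ALB and KRT5) did not pass 3.53 normalized counts in any library, while PECAM1 stood at 201 to 321 and COL1A1 at 165 to 224. The 0.5 nM replicate 2 library stood apart, holding the lowest of 15 values for 12 of the 40 tested members where no other library held more than 5. Set against the other 0.5 nM libraries, its members had a median log2 difference of -0.08, from -0.61 for GOLGB1 to 0.40 for COG7, and the difference had a Spearman correlation of -0.554 with transcript length over 40 genes of the same library.

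Of the 42 members, 40 averaged at least 10 normalized counts over the libraries and were tested. VPS52, a core subunit of GARP, gave 1 read in all 15 libraries. Its sequence lies on 5 of the 261 alternate contigs of the genome as well as on chromosome 6, and the part of these copies in its listed level was not tested. TRAPPC5, a small TRAPP core subunit, gave 3 to 12 reads a library. Neither gene entered a test.

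Levels can be compared between genes only per length, so the vehicle values were divided by the length of each gene's canonical transcript in kilobases. On that scale TRAPPC1, a core TRAPP subunit, stood highest at 1031 ± 67.1 (SD, n = 3) normalized counts per kb, followed by TRAPPC3 at 752 ± 10.2 and by GORASP2, the GRASP of the medial Golgi, at 716 ± 23.2. TRAPPC1 lay above TRAPPC3 by more than both spreads, while the gap between TRAPPC3 and GORASP2 was close to the sum of their SDs. These 3 led the list, and the large outer subunits TRAPPC8, TRAPPC9, TRAPPC10 and TRAPPC11 stood between 46.1 and 93.7 per kb. TRAPPC10 matched another annotated gene in a search for copies, and the part of that gene in its level was not tested.

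Among the golgins, USO1, which tethers vesicles from the endoplasmic reticulum, followed GORASP2 at 476 ± 31.4 per kb. GOLGA5, a golgin with a membrane anchor that captures vesicles inside the stack, stood at 385 ± 9.27, and GOLGA2, the cis-Golgi golgin that binds USO1 and GORASP1, at 309 ± 3.16. The lowest golgin was GOLGA1 at 72.8 ± 5.56, below its neighbours by about the sum of their SDs, with GOLGB1 (giantin) at 84.3 ± 5.72 and GCC1 at 85.2 ± 5.55. COG subunits ran from COG8 at 19.0 ± 2.50 to COG4 at 313 ± 16.7. For COG8, 72.1% of the exon bases lie within other annotated genes, and the part of this overlap in its level was not tested. Of the exocyst, EXOC2 led at 316 ± 3.45 and EXOC8 was lowest at 55.5 ± 0.623. Within GARP, VPS51 at 386 ± 2.12 stood above VPS53 at 94.1 ± 5.01 and VPS54 at 87.5 ± 1.88, and the latter pair differed by about their spread.

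**Figure D1:**
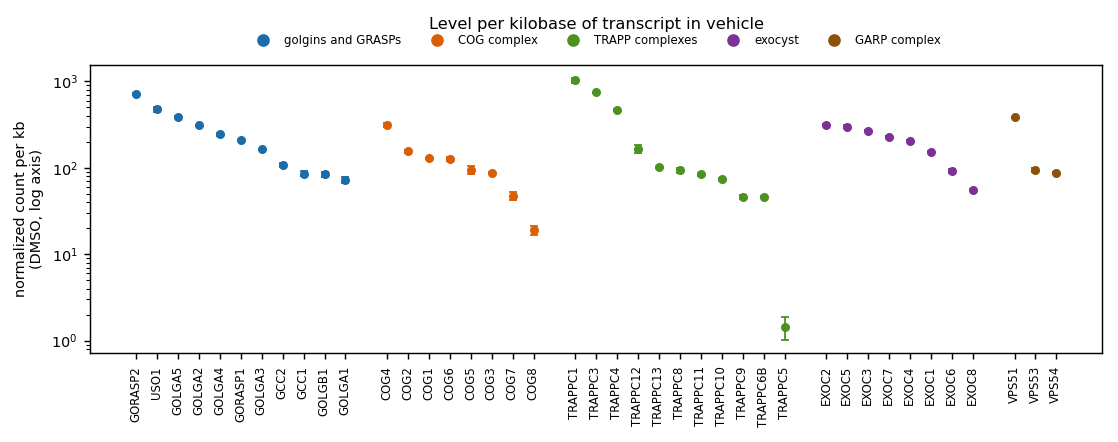
Mean normalized count per kilobase of canonical transcript (log axis) in the 3 DMSO libraries, with the SD as bars, for 41 members coloured by complex; VPS52 had no read there and is not drawn. TRAPPC1 stood highest at 1031 and TRAPPC5 lowest at 1.44.

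At 500 nM, 4 of the 40 tested members fell and none rose at an adjusted p under 0.05: the golgins GOLGA2 and GOLGA5, the stacking protein GORASP2 and the COG subunit COG6. Over all 13561 genes tested, 17.8% passed in either direction, 7.69% upward and 10.1% downward, so the members' 10.0% lay below the first share and near the last. The mean level fell by 23.0% for GOLGA5, fell by 17.7% for GOLGA2, fell by 19.1% for COG6 and fell by 9.07% for GORASP2. In bulk RNA, fewer cells of a type and less RNA per cell cannot be told apart. edgeR and DESeq2 on the recovered reads called the same 4 genes.

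GOLGA5 (chromosome 14, 92794305 to 92839947, plus strand, GENCODE 44 on GRCh38) had the largest change. Its normalized counts were 1128, 1077 and 1117 in the DMSO libraries, 898, 991 and 933 at 50 nM, and 789, 891 and 882 at 500 nM. Every library at 50 and 500 nM lay below every DMSO library, and the 0.5 nM (1044 to 1047) and 5 nM (1059 to 1075) libraries also lay below, by a smaller margin. The log2 fold change was -0.38 at 500 nM (SE 0.052, 95% interval -0.49 to -0.27, adjusted p = 3.7e-05) and -0.24 at 50 nM (adjusted p = 0.0080). GOLGA5 was also the member that fell from 5 to 50 nM, by 0.19 on the log2 scale with an adjusted p of 0.047, in a comparison where 5.01% of all genes passed (2.62% up, 2.39% down). At 50 nM the call was lost without the 50 nM replicate 1 library (adjusted p = 0.056), and the call from 5 to 50 nM was lost with DESeq2, with no filter on low values, with the same total per library and without any 1 of 11 single libraries.

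GOLGA2 (chromosome 9, 128255829 to 128276026, minus strand) gave 1330.0, 1357 and 1349 normalized counts in DMSO, 1139, 1110.1 and 1176 at 50 nM, and 1116, 1119.6 and 1087 at 500 nM. The 3 vehicle libraries were close together and all 12 treated libraries lay below them. At 0.5 nM the values were already 1212, 1140.3 and 1319, and at 5 nM 1245, 1219 and 1301, though neither dose passed the test. The log2 fold change was -0.24 at 50 nM (adjusted p = 0.0065) and -0.28 at 500 nM (SE 0.051, 95% interval -0.39 to -0.17, adjusted p = 0.00063). Between 50 and 500 nM it moved by a further -0.04, with an interval from -0.15 to 0.06.

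GORASP2 (chromosome 2, 170928464 to 170967130, plus strand) stood at 1698, 1811 and 1744 in DMSO, at 1673, 1653 and 1572 at 50 nM, and at 1612, 1539 and 1624 at 500 nM. All libraries at both doses lay below all DMSO libraries, but the gap at 50 nM was small and only the 500 nM difference passed, at a log2 fold change of -0.14 (SE 0.042, adjusted p = 0.029). This call did not hold without DMSO replicate 2 (adjusted p = 0.14), DMSO replicate 3 (0.069), 500 nM replicate 1 (0.054) or 500 nM replicate 2 (0.13).

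COG6, a lobe B subunit of COG (chromosome 13, 39655627 to 39791665, plus strand), gave 469, 429.9 and 465 normalized counts in DMSO, 439, 389.7 and 408 at 50 nM, and 363, 358 and 382 at 500 nM. The 500 nM libraries were below every DMSO library, while the 50 nM group overlapped DMSO. The log2 fold change at 500 nM was -0.31 (SE 0.080, 95% interval -0.47 to -0.14, adjusted p = 0.011), and without DMSO replicate 1 the adjusted p was 0.051. No exon base of these 4 genes is shared with another annotated gene, and no near-identical copy of them was found.

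**Figure D2:**
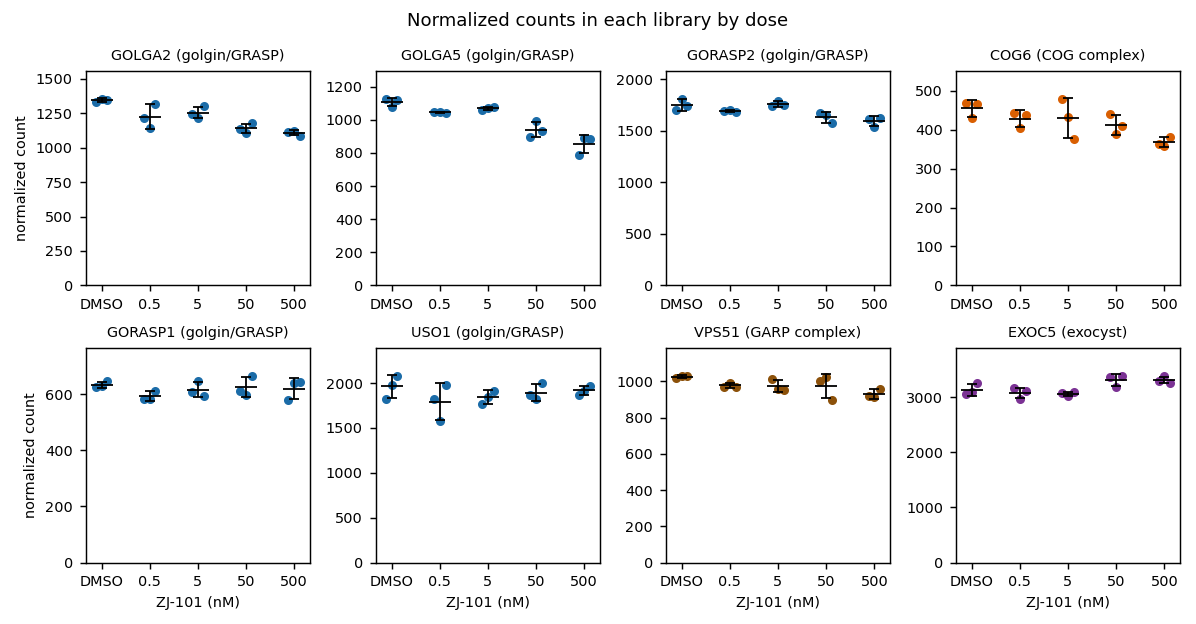
Normalized counts in each library (points) with the group mean and SD (bars) at each ZJ-101 dose, for the 4 members that fell at 500 nM and for GORASP1, USO1, VPS51 and EXOC5, which did not pass; axes start at 0. GOLGA5 goes from 1077 to 1128 in DMSO to 789 to 891 at 500 nM, while GORASP1 and USO1 overlap between those groups.

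At the lower doses fewer members moved. At 0.5 nM, 0 of 40 passed the limma test, where 1.17% of all genes did (0.251% up, 0.922% down), and 4 had an unadjusted p under 0.05, all with negative fold changes, where 8.63% of all genes were down at that p. At 5 nM, again 0 of 40 passed, beside 2.18% of all genes (0.465% up, 1.71% down), with 1 member up and 2 down at an unadjusted p under 0.05 (4.96% and 7.94% of all genes). edgeR and DESeq2 also called 0 members at both doses. At 50 nM GOLGA2 and GOLGA5 fell and no member rose, which is 5.0% of the members beside 6% of all genes (2.29% up, 3.71% down). From 50 to 500 nM, 0 members passed limma, edgeR or DESeq2, with 1 up and 2 down at an unadjusted p under 0.05, and 2.28% of all genes passed (0.479% up, 1.8% down). These contrasts share libraries (the DMSO group for each dose, the neighbouring dose for each step), so they are not independent of each other.

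A fit on the rank of the dose, from DMSO as 0 to 500 nM as 4, called the same 4 genes as the 500 nM contrast and none with a positive slope, beside 17.6% of all genes (8.23% up, 9.33% down). Per dose step the log2 slope was -0.09 for GOLGA5 (adjusted p = 9.5e-05), -0.07 for GOLGA2 (0.00069), -0.07 for COG6 (0.013) and -0.03 for GORASP2 (0.036). The COG6 and GORASP2 slopes did not pass without 500 nM replicate 2 (adjusted p = 0.051 and 0.13), and the COG6 slope did not pass over the treated libraries alone (0.077). A positive slope of EXOC5 passed without DMSO replicate 3 (adjusted p = 0.035) and over the treated libraries alone (0.045), and a negative one of VPS51 without 50 nM replicate 2 (0.044). Libraries of the dose and of DMSO did not overlap for 9 members at 0.5 nM, 8 at 5 nM, 9 at 50 nM and 16 at 500 nM of 40, where the shares over all genes were 18.1%, 23.2%, 24.8% and 38.5%.

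**Figure D3:**
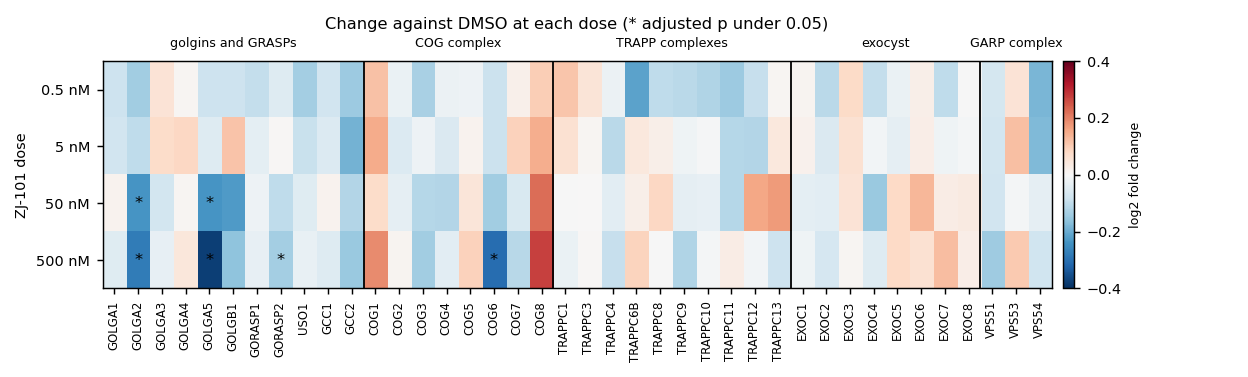
Log2 fold change against DMSO (colour, from -0.4 to 0.4) of the 40 tested members, in columns by complex, at each ZJ-101 dose, in rows; a star marks an adjusted p under 0.05. Stars stand at GOLGA2 and GOLGA5 at 50 nM and at these, GORASP2 and COG6 at 500 nM.

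The median log2 fold change of the 40 members at 500 nM was -0.03 beside 0.003 over all genes. At 0.5 nM, where no member passed, it was -0.07 beside -0.007. The median size regardless of sign at 500 nM was 0.07 beside 0.12, and at 5 nM, where no member passed, 0.06 beside 0.08. No test of these differences was made. The 95% interval at 500 nM lay within 0.5 of 0 for 39 of the 40 and within 0.25 for 26.

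Of the 11 golgins and GRASPs, 3 fell (27.3% beside 10.1% of all genes), and whether the class differs from the others was not tested. At 500 nM 10 of the 11 had a negative log2 fold change, where 49.4% of all genes did, with a median of -0.05. The lean was there at 0.5 nM too, where no member passed: 9 of the 11 were negative beside 52.4% of all genes. At 5 nM 7 of the 11 were negative (50.1% of all genes), and at 50 nM 8 (50.8%). All doses share the DMSO libraries, and the 0.5 nM group holds replicate 2, which stood apart with lower values for longer transcripts. The part of that library in the lean was not tested. The median of the 11 at 0.5 nM was -0.08. In the list of 37 other golgins, tethers and adaptors, 23 were negative at 500 nM. The 11 genes' summed normalized counts were 12345 to 12839 in DMSO, 11237 to 12861 at 0.5 nM and 11638 to 11846 at 500 nM. The trans-Golgi golgins with a GRIP domain, GOLGA1, GOLGA4, GCC1 and GCC2, did not pass, at log2 fold changes of -0.05, 0.04, -0.05 and -0.15. GCC2 was the nearest to the threshold of the 4, with an adjusted p of 0.13. GOLGA3, a golgin of the Golgi rim, gave -0.03. GOLGB1, the largest golgin, gave -0.16 with the widest interval of the class, from -0.42 to 0.09, and its 0.5 nM values ran from 671 in replicate 2 to 1094 in replicate 3.

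The GOLGA2 partners GORASP1 and USO1 did not pass at 500 nM. GORASP1, which anchors GOLGA2 on cis-Golgi membranes, stood at 626, 629 and 646 normalized counts in DMSO and at 579, 639 and 644 at 500 nM. USO1 stood at 1824, 1982 and 2081 in DMSO and at 1871, 1915 and 1972 at 500 nM. In both, the groups overlapped. The log2 ratio of GOLGA2 to GORASP1, each set against its DMSO mean, changed by -0.249 at 500 nM, and that of GOLGA2 to USO1 changed by -0.251.

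In all, 5 such ratios were compared, by exact two-sided permutation tests for which 3 against 3 libraries allow no p below 0.1. GOLGA2 to GORASP1 and GOLGA2 to USO1 reached that p of 0.1, as did VPS54 to VPS50 with a change of -0.353 (adjusted over the 5 ratios, 0.167 each). Against its DMSO mean, the VPS54 to VPS50 ratio already stood at -0.29, -0.33 and -0.26 in the 0.5 nM libraries. VPS54 and VPS50 are the subunits that distinguish GARP from its endosomal relative EARP. GORASP2 to GORASP1 changed by -0.106 and GCC2 to GCC1 by -0.0951, each with an exact p of 0.3. This test can call none of the 5 at 0.05, and no other test of the ratios was run.

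In the COG complex the subunits spread in both directions. COG6 fell, and COG3 and COG7 gave -0.14 and -0.11 without passing. COG1, of lobe A, and COG8, which joins the lobes, gave 0.19 and 0.27, with adjusted p of 0.12 and 0.14. COG1 stood at 383, 396 and 379 in DMSO against 424, 468 and 431 at 500 nM, and COG8 at 86.5, 100.2 and 77.1 against 106, 103 and 109, with no overlap in either. For COG8, 72.1% of the exon bases lie within other annotated genes, 39.3% on the same strand, and for COG1 27.8%, 1.74% on the same strand. The strand setting of the counting is not given in the sources used here, and the part of these neighbours in the counts was not tested. The complex's median was -0.02, and its summed counts of 3152 to 3316 in DMSO overlapped the 3140 to 3216 at 500 nM.

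TRAPP had 0 of 10 tested subunits past the threshold at 500 nM by limma, edgeR or DESeq2, and none with an unadjusted p under 0.05. The smallest p belonged to TRAPPC9, a subunit of TRAPPII, at 331, 324 and 300.3 normalized counts in DMSO, 312, 317 and 302 at 50 nM, and 299, 287 and 292 at 500 nM. The last group lay just below DMSO, at a log2 fold change of -0.12 (95% interval -0.27 to 0.04, adjusted p = 0.31). TRAPPC13, a subunit of TRAPPIII, went the other way between doses: it gave 332, 331 and 328 at 50 nM and 280.3, 287 and 264 at 500 nM, against 294, 292 and 294 in DMSO. That step of -0.25 had the smallest adjusted p of any member from 50 to 500 nM, 0.094, and was past 0.05 only without the 0.5 nM replicate 2 library among the fits run. For TRAPPC6B, 56.2% of the exonic length lies opposite genes of the other strand. TRAPPC6B and TRAPPC10 each matched 1 annotated gene in the search for copies, which took both strands and kept overlapping genes. Whether the TRAPPC6B match is a copy or the overlap itself was not tested. No exon base of TRAPPC10 lies within another annotated gene, so its match is not such an overlap. TRAPPC12 has a copy on 1 alternate contig. The part of these matches in the counts of TRAPPC6B, TRAPPC10 and TRAPPC12 was not tested.

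None of the 8 exocyst subunits passed at 500 nM by limma, edgeR or DESeq2, and none had an unadjusted p under 0.05. EXOC5, which had the smallest p, stood at 3051, 3101 and 3264 in DMSO, 3375, 3184 and 3389.8 at 50 nM, and 3300.1, 3381 and 3268 at 500 nM. All 500 nM libraries lay above DMSO, the lowest of them only just, at a log2 fold change of 0.08 (95% interval -0.01 to 0.17, adjusted p = 0.21). EXOC7, which binds plasma membrane lipids, gave the largest value of the complex at 0.12. Of its exonic length, 28.6% lies opposite other genes. The search for copies, which took both strands and kept overlapping genes, matched 1 annotated gene, ZACN, to part of it. Whether that match is a copy or the overlap itself was not tested. Summed over the 8 genes, counts were 8318 to 8565 in DMSO and 8571 to 8628 at 500 nM. EXOC5 is the most abundant of them by count, 3 of the 8 subunits were below 0, and the median log2 fold change was 0.02.

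GARP had no call among its 3 tested subunits. VPS51, which is shared with EARP, stood at 1019.6, 1029.9 and 1029 in DMSO, 1004, 1022 and 898 at 50 nM, and 916, 912 and 959 at 500 nM. The 500 nM group lay clear of the tightly grouped vehicle libraries, and the log2 fold change of -0.14 missed the threshold with an adjusted p of 0.063. Without 0.5 nM replicate 2 or without 50 nM replicate 3, it passed at 0.040 and 0.035. VPS53 gave 0.10 and VPS54 -0.08 at 500 nM, and neither passed.

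**Figure D4:**
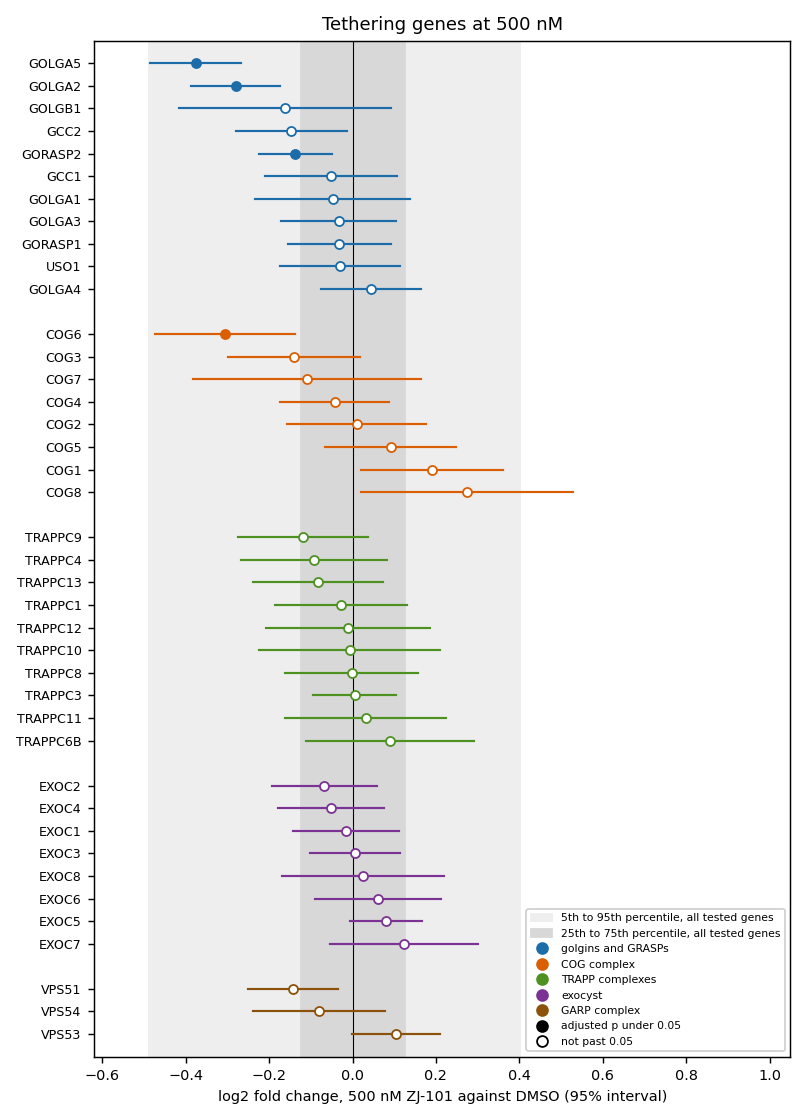
Log2 fold change at 500 nM against DMSO with its 95% interval (lines) for the 40 tested members by complex; filled points passed an adjusted p of 0.05 and grey bands mark the 25th to 75th and 5th to 95th percentiles of all 13561 tested genes. The 4 filled points, GOLGA5, GOLGA2, GORASP2 and COG6, lie between -0.38 and -0.14, and the other 36 intervals are drawn open.

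Lists of genes that act beside the tethers were read at 500 nM as well. They were chosen with earlier results of these data known, and whether a list differs from all genes was not tested. Of 20 small GTPases that recruit or are activated by tethers, 7 fell and none rose (35.0% against the 10.1% of all genes that fell), with a median of -0.09. ARL1, a GTPase that recruits some GRIP golgins, went from 2042 ± 9.04 to 1724 ± 62.1 normalized counts (log2 fold change -0.24, adjusted p = 0.00032). RAB6A, which binds several trans-Golgi golgins, went from 2364 ± 53.5 to 2034 ± 5.39 (-0.22, adjusted p = 0.00069), and RAB1A, the GTPase that TRAPP activates and that binds USO1 and GOLGA2, from 2322 ± 62.7 to 2018 ± 29.4 (-0.20, adjusted p = 0.0015; all n = 3). ARL1 thus fell where none of the 4 GRIP golgins passed, and RALA and RALB, which regulate the exocyst, gave -0.08 and -0.06 without passing.

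Among 23 SNAREs and their partners, the fusion proteins that act after tethering, 2 fell and none rose, 8.7% of the list beside 10.1% of all genes that fell. STX5, the syntaxin of the early Golgi that binds COG and USO1, went from 829.8 ± 77.8 to 692 ± 50.5 (-0.26, adjusted p = 0.0080) and its partner BET1 from 321 ± 28.6 to 252 ± 13.6 (-0.34, adjusted p = 0.015). The median of the list was -0.06.

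Of 37 tested genes for other golgins, tethers and their adaptors, 6 fell and 2 rose (21.6% beside 17.8%), and the median was -0.01. ACBD3, which binds the golgin giantin on Golgi membranes, had the strongest fall, from 939.9 ± 13.8 to 669 ± 59.0 normalized counts (-0.49, adjusted p = 6.0e-06). TMF1, a golgin that binds RAB6A, gave -0.31 (adjusted p = 0.00042), and GOLPH3, a Golgi adaptor that binds phosphatidylinositol 4-phosphate, -0.24 (adjusted p = 0.00060). The rises were VPS50, the EARP subunit, at 0.27 (adjusted p = 0.037) and TGFBRAP1, a subunit of the endosomal CORVET tether, at 0.24 (adjusted p = 0.030). At the low doses GOLM1, a cis-Golgi membrane protein, was the 1 gene of this list past the threshold, at -0.25 for 0.5 nM and -0.22 for 5 nM (adjusted p = 0.012 in each), and it did not pass at 50 nM (-0.05) or 500 nM (-0.13, adjusted p = 0.059).

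**Figure D5:**
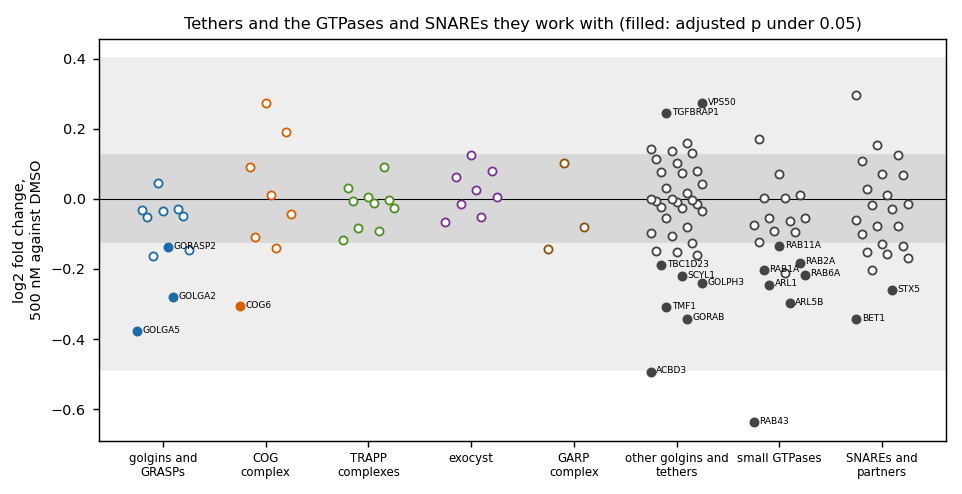
Log2 fold change at 500 nM against DMSO of each tested gene (points), by complex and for 3 lists of genes that act beside the tethers; filled points passed an adjusted p of 0.05, and grey bands are the percentile ranges of all tested genes (25th to 75th, 5th to 95th). Filled points number 3 among golgins and GRASPs, 1 in COG, 0 in TRAPP, exocyst and GARP, 8 among other golgins and tethers, 7 among small GTPases and 2 among SNAREs; 79.3% of the exonic length of RAB43 also lies in an overlapping gene on its strand.

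Promoter letters were read for the members as a description, with no test. The letters ACGTGGC are known as a Golgi stress element. RefSeq promoters (250 bases before the start to 50 after, GRCh38.p14) were held for 36 of the 42 members. Searched on both strands, ACGTGGC stood in 6 of the 36, against 5.64% of the 10029 tested genes with a promoter and 3.22% of all 35116 promoters. The 36 include TRAPPC5 and VPS52, which were not tested, so they are not the same kind of set as the tested genes. The windows of the called members GOLGA5 and GORASP2 and of the golgins GOLGA1 and GOLGA3, which did not pass, are shown 5′ to 3′ on the gene's strand, with the motif or its reverse complement in capitals.
GOLGA5 (chr14:92794114-92794142, plus strand): accggcggcgaGCCACGTcacacgcacgc
GORASP2 (chr2:170929232-170929260, plus strand): cggcagcgagtGCCACGTcccaagtgcta
GOLGA1 (chr9:124941247-124941275, minus strand): gccgctcgctgACGTGGCgaactgggctg
GOLGA3 (chr12:132828844-132828872, minus strand): cccctctcacgGCCACGTctccgccggag

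COG3 and the untested TRAPPC5 held the other matches. The related letters TGACGTG, the core of stress elements of the endoplasmic reticulum, stood in 3 members (GOLGA1, GOLGA5 and GORASP1) and 3.34% of tested genes, and in GOLGA1 and GOLGA5 they overlap ACGTGGC. The letters CACGTG stood in 1 member, EXOC1, and in 12.4% of tested genes. CCGGAA stood in 21 members, the untested VPS52 among them, and in 35% of tested genes. The letters ACGTGGC were thus in windows of members that fell (GOLGA5, GORASP2) and of members that did not pass (GOLGA1, GOLGA3, COG3), and they were absent from those of GOLGA2 and COG6. A match describes the letters only.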

How the data were processed

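Poly-A RNA-seq of 15 libraries was analysed. The authors aligned reads with HISAT2 to hg38, counted them with HTSeq and deposited a signal per gene, the count divided by the DESeq2 size factor. Strand settings were not given in the sources used here. A line without a gene was left out. Whole reads could be recovered for 100.0% of values (tolerance 0.001).

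Genes averaging at least 10 were tested by limma 3.58.1 (R 4.3.3, variance trend) on log2(normalized count + 1), 5 groups in 1 fit, two-sided, Benjamini-Hochberg over 13561 genes, threshold 0.05. Fold changes are on that scale. edgeR 4.0.16 and DESeq2 1.42.0 on the recovered reads, other pseudocounts, filters and scalings, a replicate block and leaving out each library were alternatives. The test was checked on simulated data. Copies were sought with minimap2 2.31-r1302 on both strands, with genes that overlap a member kept in.

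The members and lists were chosen with earlier results of these data known. Called members got their values in every library, as did the smallest p of a complex without one; each other list was named by its 3 strongest rises and falls. Other genes were named after their values were seen. Depth limits precision through counting error.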

Additional observations from a re-analysis of the deposited data

How the results depend on the processing

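For GOLGA2, GOLGA5, GORASP2, COG6, TRAPPC9, EXOC5 and VPS51, no direction reversed at 50 nM, 500 nM or by the slope in 26 alternatives. At 500 nM the count of members stayed between 3 and 6 (3 to 5 with 1 library left out). GOLGA2 at 50 nM, 500 nM and by the slope, and GOLGA5 at 500 nM and by the slope, passed in all 26. At 0.5 nM the count was 0 to 2 with 1 library left out (2, GOLGA2 and GCC2, without 0.5 nM replicate 3). At 5 nM it was 1 (GCC2) with only the groups compared fitted. At 50 nM it was 1 to 3 with 1 library left out (1, GOLGA2, without 50 nM replicate 1). The slope gave 7 at an adjusted p under 0.1 and 2 to 5 with 1 library left out. From 5 to 50 nM the single call became 0 with no filter, with the same total per library and with DESeq2, 3 with only the groups compared (GOLGA5, GOLGB1 and TRAPPC12), and 0 to 3 with 1 library left out (3 without 0.5 nM replicate 2, and 0 without any 1 of the DMSO or 5 nM libraries, 0.5 nM replicate 1, 50 nM replicates 1 or 3, or 500 nM replicates 2 or 3). From 50 to 500 nM the count was 1 (TRAPPC13) at an adjusted p under 0.1 and 0 to 1 with 1 library left out. The causes were not tested, beyond fewer samples.

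GORASP2 at 500 nM also missed the threshold with no filter (adjusted p = 0.087), and its slope did so in 8 alternatives (adjusted p up to 0.13). VPS51 at 500 nM passed in 4 alternatives. The count of all genes called moved too with 1 library left out: from 159 at 0.5 nM to 19 (without DMSO replicate 1) and 388 (without 0.5 nM replicate 3), from 295 at 5 nM to 113 (without DMSO replicate 1) and 623, from 814 at 50 nM to 560 and 1277, from 679 at 5 to 50 nM to 424 (without 5 nM replicate 3) and 1129, and from 309 at 50 to 500 nM to 139 (without 50 nM replicate 2) and 630, these last values from 5 nM on being without 0.5 nM replicate 2. At 500 nM it was 1796 to 3098 around 2409.

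The replicate numbers did not clearly pair the libraries. Same-numbered libraries of different groups had correlations of -0.16 to 0.21 (30 pairs, 8 over 0.1). Differently numbered ones had -0.29 to 0.15 (60 pairs, 7 over 0.1), and 6 of 15 libraries correlated best with their own number. With the replicate block the counts were 2 at 50 nM, 4 at 500 nM, 4 by the slope, 1 from 5 to 50 nM and 0 elsewhere.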
